A study of Mus musculus with 6 samples.

Results

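The genes described here are the collagens, laminins, integrins, tenascins and lecticans, with the nidogens, fibronectin, dystroglycan and the link proteins that bind lecticans to hyaluronan. Members were chosen by gene symbol alone, and 94 of the 37991 genes counted matched. RNA of 6 mouse embryos (CD1 strain, E13.5) was sequenced from the dorsal telencephalon, the roof of the embryonic forebrain, from which the cortex develops, in sections taken in front of the hippocampus. The FGF2 group holds 3 embryos, numbered 6, 7 and 8 in the labels, whose brain ventricles were injected with 100 ng of the growth factor FGF2. The vehicle group holds 3 embryos, numbered 7, 8 and 9, injected with PBS containing 0.1% BSA. No genetic change is named for either group, all embryos share strain, age and the injection itself, and the labels do not give the time from injection to collection. The study's title places the comparison in work on folding of the mouse brain after FGF2.

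Fibrillar collagens build the fibres of connective tissue, and around the embryonic forebrain they are made mainly by meningeal and perivascular cells. Laminins, type IV collagen and nidogens form basement membranes, and at the pial surface the end feet of radial glia hold on to that sheet through integrins and dystroglycan. Lecticans, tenascins and link proteins form with hyaluronan the loose matrix between cells of the developing brain.

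Total counts per library ran from 61489462 to 81532334, and members took 0.537% to 0.628% of the reads in the FGF2 embryos and 0.701% to 0.78% in the vehicle embryos. All 8 markers of the dorsal telencephalon were detected, with a summed level of 1624 to 1765 CPM (counts scaled to library size) in the FGF2 embryos and 2387 to 2553 CPM in the vehicle embryos, and 3 of the 8 fell. Of the markers of the ventral telencephalon 5 of 8 rose, and of those of the choroid plexus 5 of 6. In vehicle 9 all non-zero counts were even numbers, as were 51.0% to 51.9% of those in each other library. Reads of Y-linked genes numbered 10475 to 16232 in each FGF2 embryo and in vehicle 7, but 22 in vehicle 8 and 22 in vehicle 9. FGF2 8 stood apart from the other libraries, with a voom quality weight of 0.218 where the others had 0.912 to 1.89. The part of these differences in the results that follow was not tested, except where a value is given.

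The type I collagen genes Col1a1 and Col1a2 and 2 of the 6 type VI genes, Col6a2 and Col6a3, fell in the FGF2 embryos, Col9a1 and Col9a2 of type IX collagen rose, and no laminin, nidogen or integrin beta subunit passed the test. Of the 94 members 90 had enough reads to be tested. With edgeR's quasi-likelihood test at a Benjamini-Hochberg adjusted p under 0.05, 3 members rose (Itga3, Col9a1 and Col9a2), 7 fell (Col1a1, Col1a2, Col6a2, Col6a3, Col8a2, Itga11 and Tnn) and 80 did not pass. Of all 21983 genes tested, 2.68% rose and 0.951% fell, and of the members tested 3.33% rose and 7.78% fell. Scaled by library totals alone, 5 members rose and 5 fell. The median log2 fold change (FGF2 over vehicle) was -0.02 over the members and 0.01 over all genes. An unadjusted p under 0.05 was found for 35 of the 90 members tested and for 4242 of all 21983 genes tested. In 19 members (21.1%) the 3 FGF2 embryos all lay above the 3 vehicle embryos, as in 14.6% of all genes. In 16 members (17.8%) they all lay below, as in 13.6% of all genes, and in the other 55 the groups overlapped. The samples are bulk tissue, so fewer cells of a type and less RNA per cell cannot be told apart.

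**Figure D1:**
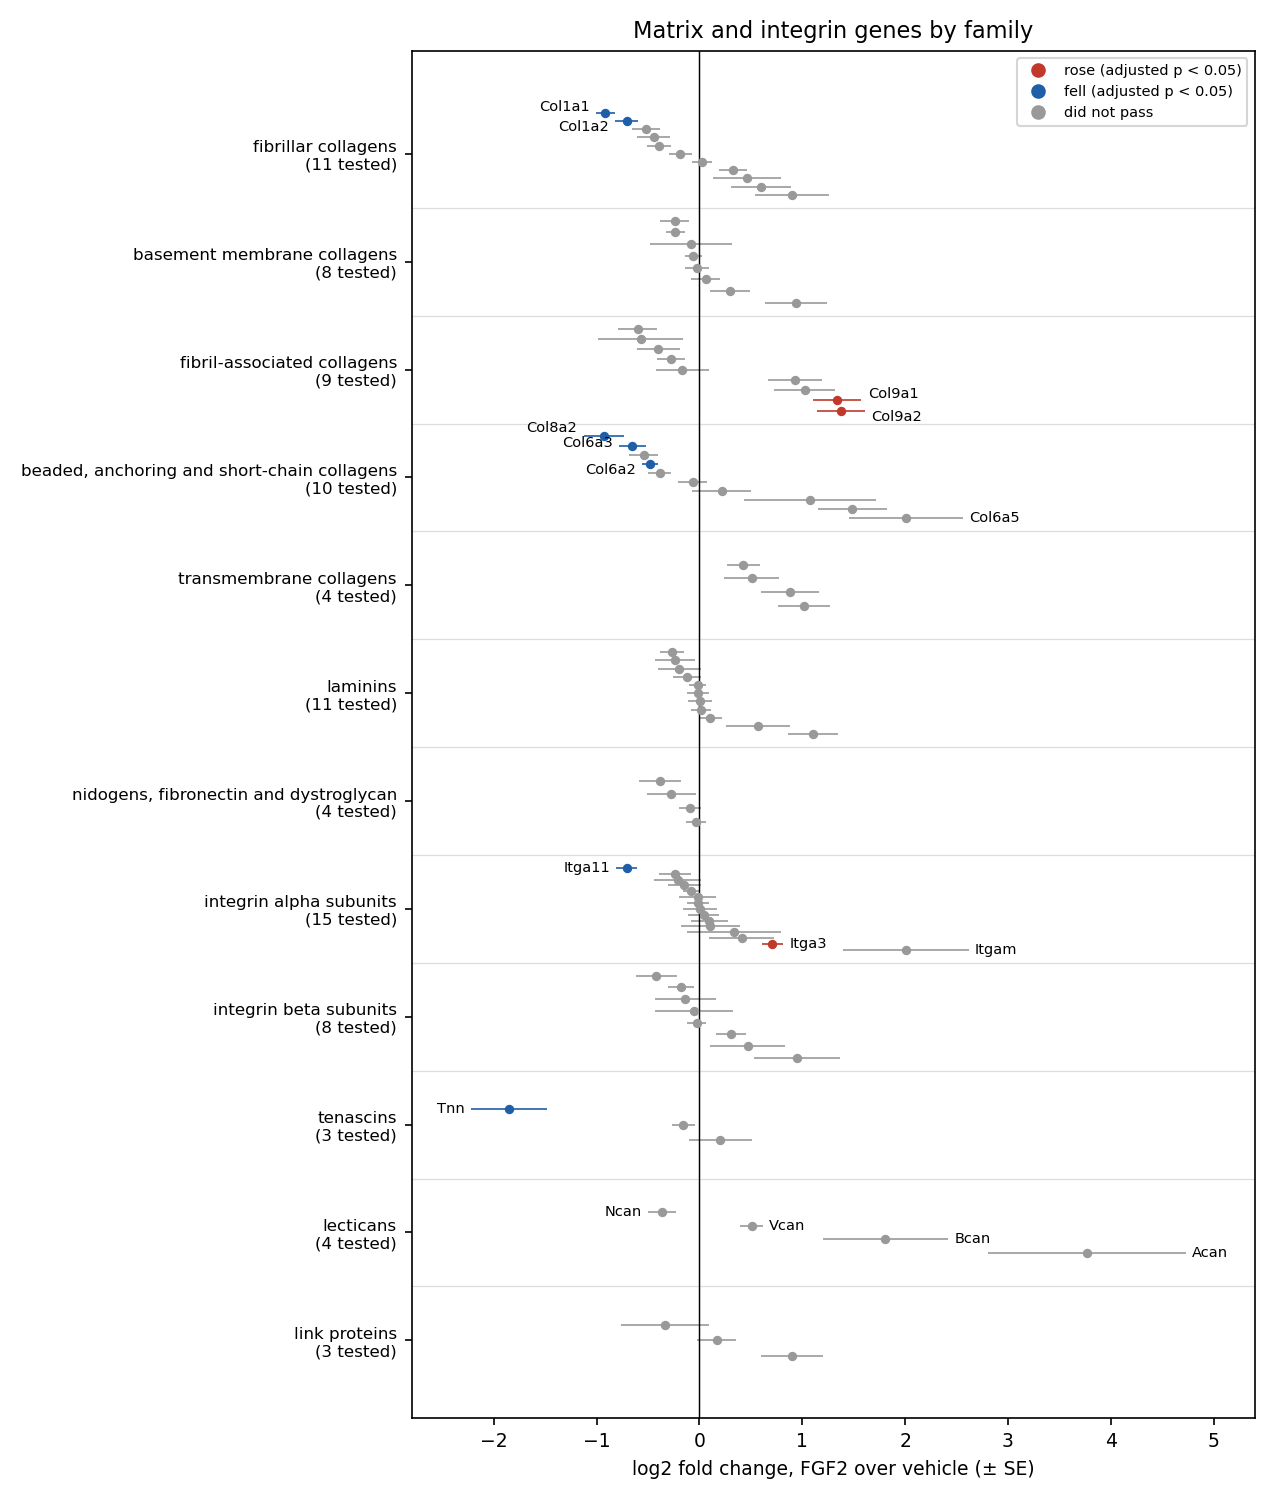
Log2 fold change of each tested member, FGF2 over vehicle, with its standard error (x axis), by family (y axis); red points rose, blue points fell and grey points did not pass the adjusted p of 0.05. The blue points are Col1a1, Col1a2, Col6a2, Col6a3, Col8a2, Itga11 and Tnn, the red points are Col9a1, Col9a2 and Itga3, and Acan lies farthest to the right at 3.77 with a standard error of 0.96.

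Per length of gene model, in RPKM, fibrillar collagen was the most abundant matrix RNA of the tissue in both groups. In the vehicle embryos Col1a1 stood first at 280 ± 16.6 RPKM (SD, n = 3), followed by Col3a1 at 110 ± 7.15 and Col1a2 at 89.8 ± 9.70 RPKM. Next came Col4a1 at 50.8 ± 2.06, Itgb1 at 45.8 ± 1.87 and Col4a2 at 43.2 ± 4.18 RPKM, and the last 2 of these lay within their spread of each other. The first 6 places had the same order in the FGF2 embryos, with Col1a1 at 152 ± 4.71, Col3a1 at 80.3 ± 14.7, Col1a2 at 56.9 ± 5.96 and Col4a1 at 50.3 ± 3.84 RPKM, so that the gap between Col1a2 and Col4a1 was about as large as their spread. A mean of at least 10 RPKM was reached by 23 members in the vehicle group and 21 in the FGF2 group, and 54 reached 1 RPKM in each. Summed over the 94 members, the RPKM was 868, 862 and 756 in the FGF2 embryos and 1082, 979 and 1085 in the vehicle embryos. The 11 fibrillar collagens made up 43.9%, 43.8% and 45.6% of that sum in the FGF2 embryos and 54.2%, 53.0% and 54.6% in the vehicle embryos. Both the sum and the fibrillar share were thus lower in each FGF2 embryo than in any vehicle embryo. Among single members, Col1a1, Col1a2 and Col3a1 had by far the largest differences in mean RPKM, so both quantities rest mostly on these genes. For the 11 laminins the summed RPKM was 44.9 ± 4.74 against 45.2 ± 2.35, and for the 8 integrin beta subunits it was 64.9 ± 9.55 against 64.9 ± 3.39.

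**Figure D2:**
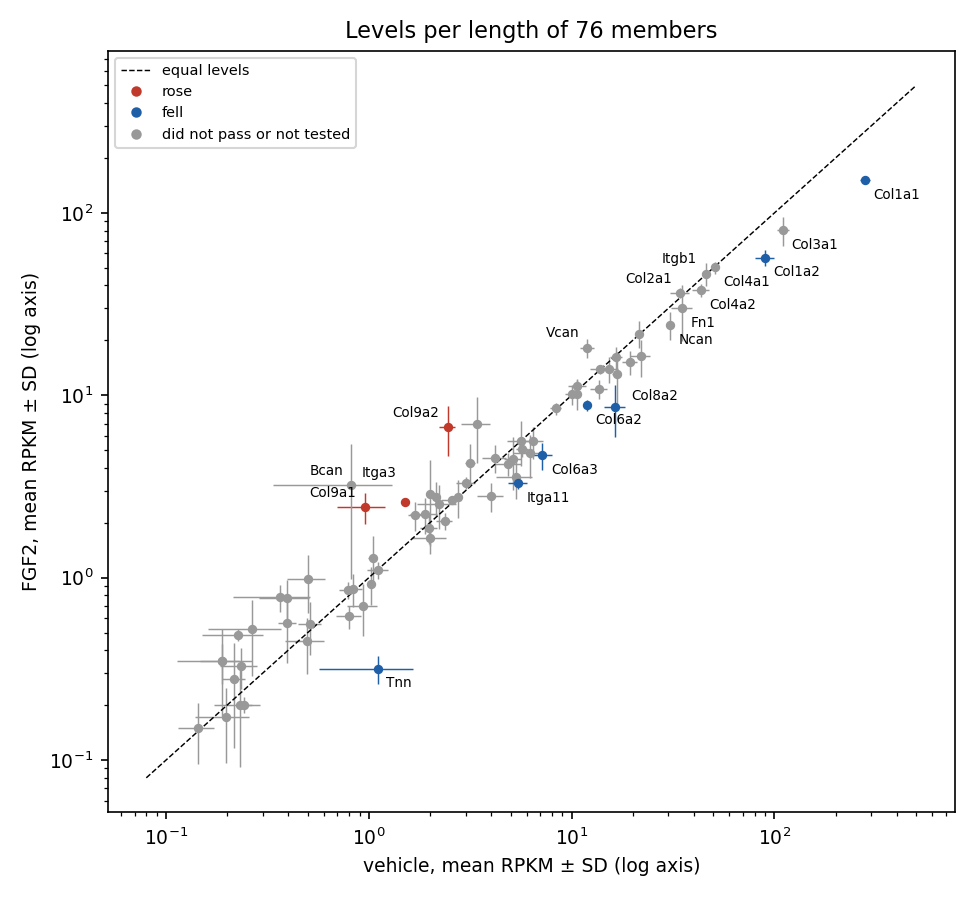
Mean RPKM in the FGF2 embryos (y axis) against the vehicle embryos (x axis), both log axes, for the 76 members with a mean of at least 0.1 RPKM in each group; bars are the SD over 3 embryos and the dashed line marks equal levels. Col1a1 lies highest, at 152 against 280 RPKM, below the line, while Col4a1 and Itgb1 lie on it.

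Promoter stretches are shown for Col1a2 and Itga11, which fell, and for Col9a1 and Itga3, which rose, so that the sequences before the starts of genes that moved in opposite directions can be compared. RefSeq's promoter table (GRCm38.p6) matched 69 of the 94 members by symbol, with 77 windows, and did not match Col1a1 among the called members. Of each window of 250 bases only the longest run free of annotated exons is shown. The bases nearest the start are therefore missing for Col1a2 (125 bases), Itga11 (29) and the downstream start of Col9a1 (16). For the upstream start of Itga3 87 are missing, although only 34 bases of its window lie in exons. The stretches are chr6:4505370-4505492 (+ strand) for Col1a2, chr9:62677605-62677825 (+) for Itga11, chr1:24177360-24177609 (+) and chr1:24194953-24195186 (+) for the upstream and downstream starts of Col9a1, and chr11:95076802-95076964 (-) and chr11:95069199-95069448 (-) for the upstream and downstream starts of Itga3. Capitals mark matches to the motifs searched on both strands.
Col1a2: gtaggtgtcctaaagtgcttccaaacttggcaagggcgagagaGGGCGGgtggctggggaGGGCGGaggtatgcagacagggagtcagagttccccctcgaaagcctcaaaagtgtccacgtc
Itga11: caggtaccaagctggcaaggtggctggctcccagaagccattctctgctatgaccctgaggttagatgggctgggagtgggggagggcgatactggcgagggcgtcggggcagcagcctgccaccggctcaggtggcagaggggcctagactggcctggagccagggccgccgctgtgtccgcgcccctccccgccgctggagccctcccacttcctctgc
Col9a1, upstream start: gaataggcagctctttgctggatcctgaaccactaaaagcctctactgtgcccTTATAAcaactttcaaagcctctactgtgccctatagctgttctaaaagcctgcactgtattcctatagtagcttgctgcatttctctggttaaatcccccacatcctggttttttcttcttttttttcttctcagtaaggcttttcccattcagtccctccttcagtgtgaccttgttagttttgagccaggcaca
Col9a1, downstream start: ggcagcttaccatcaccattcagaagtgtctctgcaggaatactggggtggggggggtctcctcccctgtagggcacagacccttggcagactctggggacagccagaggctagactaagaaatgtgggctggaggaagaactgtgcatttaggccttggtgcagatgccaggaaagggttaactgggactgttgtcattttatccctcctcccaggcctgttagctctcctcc
Itga3, upstream start: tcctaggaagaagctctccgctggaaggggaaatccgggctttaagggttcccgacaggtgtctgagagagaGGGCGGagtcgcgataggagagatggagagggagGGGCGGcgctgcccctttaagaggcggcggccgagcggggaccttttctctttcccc
Itga3, downstream start: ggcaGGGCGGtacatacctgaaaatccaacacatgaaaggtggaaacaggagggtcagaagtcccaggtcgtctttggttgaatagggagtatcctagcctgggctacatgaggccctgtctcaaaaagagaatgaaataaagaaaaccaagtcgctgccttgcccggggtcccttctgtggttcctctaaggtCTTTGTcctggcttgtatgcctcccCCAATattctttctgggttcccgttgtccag
The GC box letters GGGCGG occur 205 and 188 bases before the start of Col1a2 and 178 and 144 bases before the upstream start of Itga3. Before the downstream start of Itga3, GGGCGG occurs at 246 bases, CCAAT at 31 bases and ACAAAG, on the other strand, at 56 bases. The TATA box letters TATAA occur 196 bases before the upstream start of Col9a1, overlapped by the same letters on the other strand. In the stretches of Itga11 and of the downstream start of Col9a1 none of the letters searched were found. The shares that follow are of whole windows, bases in exons included, and so differ in extent from the stretches shown. GGGCGG was in 51.9% of the members' windows and in 32.7% of all 32851 windows of the table. TATAA was in 18.2% and 22.8%, CCAAT in 32.5% and 33.8%, and the SOX core letters ACAAAG in 9.09% and 16.5% and ACAATG in 3.9% and 10.7%. A match is a run of letters, not a bound site.

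Type I collagen, the main protein of connective tissue fibres, had the largest differences in CPM among the members that fell. In what follows, values are CPM, given for FGF2 embryos 6, 7 and 8 and then for vehicle embryos 7, 8 and 9, with the log2 fold change ± SE and the adjusted p of edgeR's test. Col1a1, the alpha-1 chain, on chromosome 11 (94797538 to 94814356, NCBIM37), stood at 886, 937 and 974 against 1815, 1657 and 1808 CPM. Each FGF2 embryo was far below each vehicle embryo, and the means of 932 ± 43.7 and 1759.7 ± 89.3 CPM (SD, n = 3) gave a 1.89-fold lower level (-0.92 ± 0.09, adjusted p = 0.00276). Within the span of Col1a1 lies that of Gm17329, a gene without a name, whose reads came to 9.46% of those of Col1a1. Col1a2, the alpha-2 chain, on chromosome 6 (4454814 to 4491543), stood at 671, 654 and 569 against 1051, 908 and 1136 CPM (-0.71 ± 0.12, adjusted p = 0.0202). Its groups were apart as well, with FGF2 8 the lowest. The ratio of Col1a1 to Col1a2 in RPKM was 2.38, 2.59 and 3.10 in the FGF2 embryos and 3.13, 3.30 and 2.96 in the vehicle embryos, which overlap.

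The other 9 fibrillar chains did not pass, and their log2 fold changes ran from -0.52 to 0.90. Col3a1, the chain of type III collagen in soft tissue and vessel walls, was at 684, 649 and 492 against 881, 806 and 924 CPM, groups that do not overlap (-0.52 ± 0.14, adjusted p = 0.0889). Col5a1 and Col5a2, chains of type V collagen that set fibril width, had log2 fold changes of -0.40 ± 0.12 and -0.44 ± 0.16 (adjusted p = 0.116 and 0.185). Col2a1, the fibrillar collagen of cartilage and of early neuroepithelium, was at 193, 203 and 223 against 223, 182 and 204 CPM, with the groups mixed (0.03 ± 0.10, adjusted p = 0.911). Col24a1, a minor fibrillar collagen, was at 2.52, 2.34 and 5.35 against 1.91, 1.39 and 2.16 CPM, high in FGF2 8 (0.90 ± 0.36, adjusted p = 0.225). Col27a1, of developing cartilage, and Col5a3, a minor type V chain, were higher in each FGF2 embryo than in any vehicle embryo, at 0.33 ± 0.13 and 0.60 ± 0.29 (adjusted p = 0.235 and 0.317). Of the 11 fibrillar collagens 0 rose, 2 fell and 9 did not pass, with a median log2 fold change of -0.18.

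Type VI collagen forms beaded filaments around cells, and Col6a2 and Col6a3, which code for 2 of its main chains, fell. Col6a2, on chromosome 10 (76058507 to 76086375), stood at 64.4, 72.2 and 63.8 against 91.9, 91.7 and 95.4 CPM (-0.48 ± 0.08, adjusted p = 0.0185). Col6a3, on chromosome 1 (92663435 to 92740529), was at 57.5, 56.1 and 43.2 against 87.1, 72.2 and 87.4 CPM (-0.65 ± 0.13, adjusted p = 0.0386). Neither gene's groups overlapped, and the vehicle embryos were tight for Col6a2. Col6a1, the remaining main chain, was at 43.6, 48.3 and 38.8 against 56.1, 52.3 and 62.5 CPM and did not pass (-0.39 ± 0.11, adjusted p = 0.104). The low-level chains Col6a4, Col6a5 and Col6a6 did not pass either, at 1.07 ± 0.64, 2.01 ± 0.55 and 0.22 ± 0.29 (adjusted p = 0.410, 0.101 and 0.730), and Col6a5 was higher in each FGF2 embryo. Col8a2, a short-chain collagen that forms networks in vessels and the eye, on chromosome 4 (125964037 to 125991574), was at 49.5, 34.5 and 28.7 against 76.1, 62.4 and 76.8 CPM (-0.93 ± 0.19, adjusted p = 0.0463). FGF2 8 was the lowest for Col8a2 and FGF2 6 the highest of its group, still below every vehicle embryo. Its partner chain Col8a1 had a log2 fold change of -0.54 ± 0.15 and did not pass (adjusted p = 0.0929). Col28a1, a low-level relative of type VI collagen, was at 0.58, 0.51 and 0.54 against 0.16, 0.19 and 0.22 CPM, higher in each FGF2 embryo (1.49 ± 0.34, adjusted p = 0.0569). In this family 0 rose, 3 fell and 7 did not pass of 10 tested, with a median of -0.23, and Col10a1, at 0 to 16 reads per library, was not tested.

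**Figure D3:**
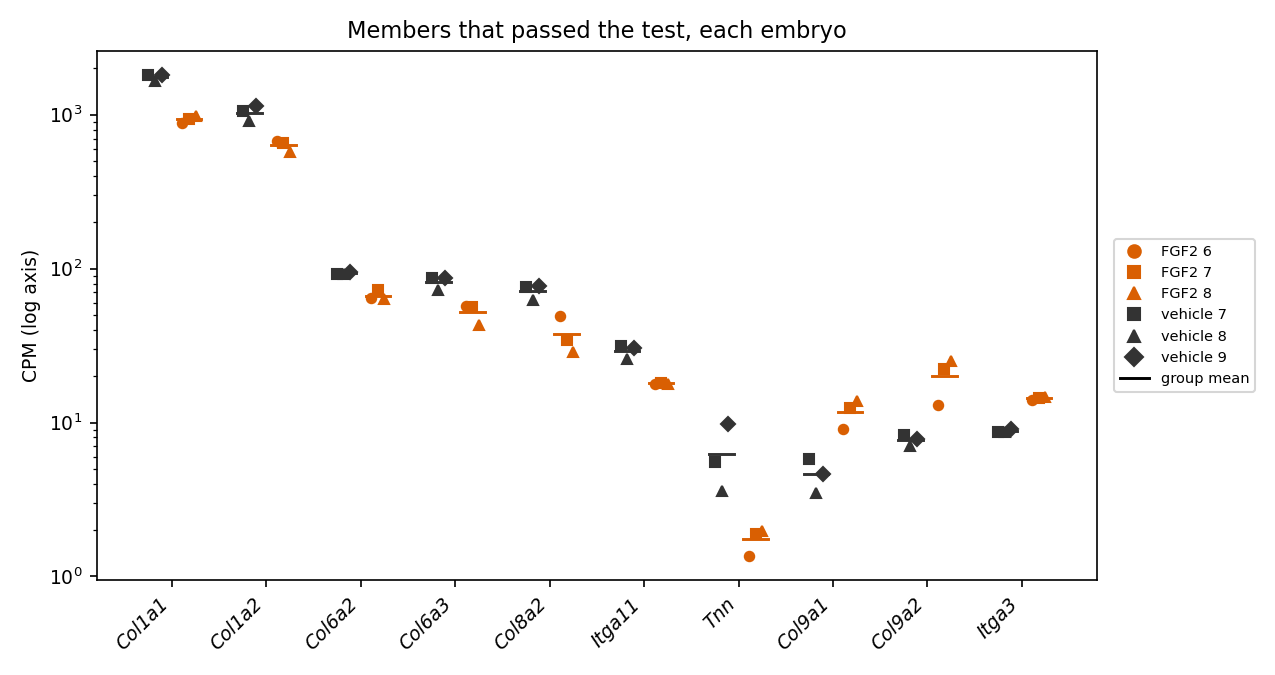
CPM on a log axis (y axis) of the 10 members that passed the test (x axis); each symbol is 1 embryo, orange for FGF2 and dark grey for vehicle, and lines are group means. The groups do not overlap in any of the 10 genes, and Col1a1 runs from 886 to 974 CPM in the FGF2 embryos and from 1657 to 1815 CPM in the vehicle embryos.

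Markers of meningeal, vascular and other mesenchymal cells are set beside these collagens. The 10 meningeal markers summed to 283 to 346 CPM in the FGF2 embryos and 303 to 346 CPM in the vehicle embryos, with 1 that rose (Foxd1, a transcription factor also found in other mesenchyme), 0 that fell and none at 0 in all libraries. For the 6 pericyte markers the ranges were 99.0 to 133 and 80.2 to 94.8 CPM, and for the 8 endothelial markers 223 to 250 and 206 to 234 CPM, with 0 passing in either list. The 7 markers of skull and cartilage mesenchyme summed to 139 to 236 and 151 to 190 CPM, and the 4 skin markers to 58.0 to 91.6 and 73.8 to 101 CPM. Muscle markers summed to at most 1.22 CPM, with Myf5, a muscle determination factor, at 0 in all libraries. Members of the meningeal list differed in direction: Crabp2, a retinoic acid binding protein, was lower in each FGF2 embryo (-0.34 ± 0.12, adjusted p = 0.186), and Aldh1a2, Ptgds and Foxc2 were higher in each (1.63 ± 0.39, 1.95 ± 0.48 and 1.03 ± 0.26, adjusted p = 0.0712, 0.0725 and 0.0788). Their part in the collagen values was not tested.

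Type IX collagen coats the surface of type II collagen fibrils, mainly in cartilage and the eye, and 2 of its 3 chains rose in the FGF2 embryos. Col9a1, on chromosome 1 (24184449 to 24259577), stood at 9.02, 12.5 and 13.7 against 5.82, 3.47 and 4.63 CPM, a 2.53-fold rise (1.34 ± 0.23, adjusted p = 0.0253). Reads were counted over the whole gene, so the starts printed above cannot be told apart in them. Col9a2, on chromosome 4 (120711990 to 120727927), was at 13.0, 22.1 and 25.0 against 8.33, 7.03 and 7.78 CPM, a 2.60-fold rise (1.38 ± 0.23, adjusted p = 0.0234). Col9a3 was at 18.4, 24.4 and 39.5 against 16.6, 12.9 and 13.7 CPM and did not pass (0.93 ± 0.27, adjusted p = 0.112). In all 3 chains the groups were apart, with FGF2 6 nearest to the vehicle embryos and FGF2 8 the highest. In the list of skull and cartilage mesenchyme, 2 of 7 markers had the same order of embryos: Lect1, which codes for chondromodulin, was at 1.99, 5.48 and 7.87 against 0.687, 0.628 and 1.08 CPM and rose (2.67 ± 0.50, adjusted p = 0.0337), and Matn1, a cartilage matrilin, had 2, 97 and 528 reads against 6, 0 and 0. The mesenchymal markers Prrx1, Twist1, Alx4 and Msx1 of that list ran the other way over the FGF2 embryos, as in Twist1 at 57.5, 51.9 and 27.8 CPM, and among the FGF2 embryos Runx2 was lowest in FGF2 8 as well. Col11a2, a cartilage fibril chain, was at 12.8, 13.8 and 32.0 against 14.3, 14.2 and 14.1 CPM and did not pass (0.46 ± 0.33, adjusted p = 0.495). A rise from FGF2 6 to 7 to 8 was not particular to cartilage markers. Summed choroid plexus markers had it, at 157, 220 and 469 CPM, as did those of the ventral telencephalon, at 449, 527 and 639 CPM. Within these lists Otx2 and Nkx2-1 were lowest in FGF2 8. Summed meningeal markers had the reverse order, at 346, 325 and 283 CPM. The part of cartilage RNA, or of RNA of these other tissues, in the type IX values was not tested. Without FGF2 8, Col9a1 and Col9a2 were called (adjusted p = 0.0238 and 0.0237), and without FGF2 7 they were not (0.0790 and 0.0713). Col12a1, a collagen of tendon that also decorates fibrils, was at 43.5, 64.8 and 46.5 against 74.0, 64.3 and 96.3 CPM and did not pass (-0.60 ± 0.19, adjusted p = 0.144). Of the 9 fibril-associated collagens 2 rose, 0 fell and 7 did not pass, with a median of -0.17.

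All 4 transmembrane collagens, which sit in the cell membrane, had log2 fold changes above 0 (0.43 to 1.02, median 0.70), and 0 passed. Col25a1, which takes part in innervation of muscle, had the smallest p, at 6.30, 5.77 and 8.43 against 3.99, 3.80 and 2.32 CPM, with the groups apart (1.02 ± 0.25, adjusted p = 0.0770).

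None of the basement membrane collagens passed, unlike Col1a1 and Col1a2 among the fibrillar chains. Col4a1 and Col18a1 had means near those of the vehicle embryos. In each FGF2 embryo Col4a2 lay below the vehicle values and the low-level Col4a4 above them. Col4a1, a main chain of type IV collagen, was at 335, 309 and 299 against 339, 318 and 327 CPM (-0.06 ± 0.08, adjusted p = 0.732). Col4a2, the other main chain, was at 252, 229.8 and 221 against 299.9, 273 and 252 CPM (-0.23 ± 0.10, adjusted p = 0.236). The lowest vehicle value of Col4a2 lay just above the highest FGF2 value, while Col4a1 had mixed groups. These genes lie head to head on chromosome 8, with spans that share 22 bases (11312805 to 11312826), and their RPKM ratio, Col4a1 over Col4a2, was 1.33, 1.33 and 1.35 in the FGF2 embryos and 1.11, 1.15 and 1.28 in the vehicle embryos. The span of Col4a1 also overlaps that of Gm15418, which had 46.45% as many reads, and within that of Col4a2 lies Gm15419, with 7.18%. Col18a1, the source of endostatin, was at 164, 156 and 121 against 146, 154 and 147 CPM (-0.02 ± 0.12, adjusted p = 0.940), over a span that overlaps Slc19a1. Col4a4, a minor type IV chain, was at 0.998, 0.761 and 1.10 against 0.57, 0.54 and 0.38 CPM (0.94 ± 0.30, adjusted p = 0.142). Of the 8 basement membrane collagens 0 rose, 0 fell and 8 did not pass, with a median of -0.04.

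None of the 11 laminin chains passed, with a median of -0.02. Lamc1, the gamma chain shared by most laminins, was at 98.7, 100.6 and 77.7 against 94.7, 91.1 and 94.3 CPM (-0.02 ± 0.11, adjusted p = 0.950). Lamb1, the beta chain of the early pial basement membrane, was at 83.7, 80.4 and 75.3 against 79.7, 75.8 and 86.9 CPM (-0.02 ± 0.08, adjusted p = 0.922). Lamb2 was at 64.5, 56.0 and 58.3 against 64.1, 59.2 and 53.6 CPM (0.02 ± 0.09, adjusted p = 0.949). In these 3 chains, the ones with the highest RPKM of the laminins, FGF2 and vehicle embryos were mixed. Within the span of Lamb1 lies Gm11053 and within that of Lamc1 Gm8818, with 26.06% and 10.47% as many reads. Among the alpha chains, Lama1, of embryonic basement membranes, was at 56.5, 43.1 and 30.1 against 53.4, 51.1 and 44.2 CPM (-0.20 ± 0.21, adjusted p = 0.652). Lama4, the vascular alpha chain, was at 38.5, 41.7 and 47.3 against 42.9, 40.4 and 35.1 CPM (0.11 ± 0.11, adjusted p = 0.648). Lama1 was lowest and Lama4 highest in FGF2 8, and both had overlapping groups. Lama2, the alpha chain of muscle and vessels, was at 22.4, 21.1 and 16.8 against 23.2, 19.3 and 23.0 CPM (-0.12 ± 0.14, adjusted p = 0.678). Lama5, a widespread alpha chain, was at 21.8, 23.8 and 19.3 against 26.6, 27.9 and 23.7 CPM (-0.27 ± 0.11, adjusted p = 0.249). Lama5 came close to separating the groups, since only FGF2 7 reached the lowest vehicle embryo.

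Nidogens link the laminin and type IV collagen networks, and neither passed. Nid1 was at 100.2, 88.4 and 77.7 against 98.8, 88.2 and 97.5 CPM (-0.09 ± 0.11, adjusted p = 0.672). Nid2 was at 60.5, 68.1 and 64.4 against 68.0, 58.1 and 71.0 CPM (-0.03 ± 0.10, adjusted p = 0.887), over a span that overlaps 2700060E02Rik, a gene with more reads than Nid2. Nid1 and Nid2 both had mixed groups. Fn1, fibronectin, an adhesive protein of vessels and mesenchyme, was at 289, 264 and 147 against 263, 256 and 326 CPM (-0.27 ± 0.24, adjusted p = 0.578). Dag1, dystroglycan, the laminin receptor of the radial glial end foot, was at 69.4, 64.6 and 38.5 against 74.7, 79.2 and 71.2 CPM (-0.38 ± 0.20, adjusted p = 0.349). Both Fn1 and Dag1 were far lower in FGF2 8 than in any other embryo, and for Dag1 the groups were apart.

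Integrins pair an alpha with a beta subunit, and the alpha subunit largely sets which matrix protein is bound. Itga11, which binds fibrillar collagen on fibroblasts, on chromosome 9 (62525633 to 62631789), stood at 17.9, 18.0 and 17.9 against 31.4, 26.0 and 30.6 CPM (-0.71 ± 0.10, adjusted p = 0.0113). Itga3, which binds laminin and is carried by radial glia and migrating cortical neurons, on chromosome 11 (94905788 to 94938115), stood at 14.1, 14.4 and 14.6 against 8.64, 8.66 and 9.02 CPM (0.71 ± 0.10, adjusted p = 0.0125). The groups were wide apart for both, and the embryos within a group were close to each other for Itga3. In RPKM Itga11 went from 5.43 ± 0.603 in the vehicle group to 3.31 ± 0.248 in the FGF2 group, and Itga3 from 1.51 ± 0.0442 to 2.60 ± 0.0392. Over Itgb1, the beta subunit with which each pairs, the RPKM ratio of Itga3 was 0.0535, 0.0509 and 0.0655 in the FGF2 embryos and 0.0331, 0.0333 and 0.0326 in the vehicle embryos. The same ratio for Itga11 was 0.0689, 0.0685 and 0.0781 against 0.128, 0.108 and 0.120. Itgb1 itself was at 199.5, 212 and 172 against 196, 195 and 203 CPM, with mixed groups (-0.03 ± 0.09, adjusted p = 0.898).

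The other integrin subunits did not pass. Itga6, the laminin-binding subunit of radial glia, was at 58.7, 61.6 and 39.6 against 60.8, 55.0 and 46.3 CPM (-0.02 ± 0.18, adjusted p = 0.966). Itgav, which binds fibronectin and vitronectin, was at 26.7, 32.9 and 21.4 against 22.9, 22.9 and 29.9 CPM (0.10 ± 0.18, adjusted p = 0.803). Groups were mixed for Itga6 and Itgav. Among the partners of Itgav, Itgb8, which activates TGF-beta at the neuroepithelial surface, was at 32.1, 31.8 and 22.2 against 23.7, 21.9 and 24.0 CPM (0.31 ± 0.15, adjusted p = 0.311). Itgb5 was at 47.0, 47.8 and 37.0 against 48.9, 44.4 and 55.8 CPM (-0.18 ± 0.13, adjusted p = 0.493), and Itgb3, also of platelets, at 2.81, 3.38 and 1.73 against 3.40, 3.16 and 2.16 CPM (-0.14 ± 0.30, adjusted p = 0.831). For Itgb8 only FGF2 8 lay within the vehicle range, and Itgb5 and Itgb3 were lowest in that embryo. Itgb4, the epithelial partner of Itga6, was at 3.80, 5.09 and 5.44 against 6.05, 7.57 and 5.52 CPM, lower in each FGF2 embryo (-0.42 ± 0.20, adjusted p = 0.307). Itgb2, the leukocyte beta subunit, was at 0.80, 2.18 and 1.48 against 1.05, 0.72 and 0.54 CPM (0.95 ± 0.42, adjusted p = 0.270). Its partner Itgam, carried by microglia and macrophages, was at 1.69, 2.51 and 0.53 against 0.62, 0.21 and 0.35 CPM, high in FGF2 6 and 7 (2.01 ± 0.61, adjusted p = 0.129). Microglial markers summed to 87.4 to 102 CPM in the FGF2 embryos and 57.1 to 70.0 CPM in the vehicle embryos, with Ptprc and C1qb rising, 2 of 6, and none at 0 in all libraries. Their part in the Itgam and Itgb2 values was not tested. Of the alpha subunits 1 rose, 1 fell and 13 did not pass (median 0.01), and of the 8 beta subunits 0 rose, 0 fell and 8 did not pass (median -0.04). Itgad and Itgax, leukocyte subunits at 0 to 12 reads per library, were not tested.

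Among the tenascins, glycoproteins that modulate adhesion, only Tnn passed. Tnn, tenascin-N of bone and connective tissue, on chromosome 1 (162015165 to 162083711), stood at 1.36, 1.89 and 1.97 against 5.54, 3.59 and 9.71 CPM, a 3.61-fold lower level (-1.85 ± 0.37, adjusted p = 0.0393). The groups were apart, and vehicle 9 was far above the other vehicle embryos. Tnc, tenascin-C of neural progenitors, was at 32.5, 41.5 and 39.6 against 41.6, 39.5 and 45.7 CPM, with mixed groups (-0.16 ± 0.11, adjusted p = 0.492), over a span that overlaps 8030451A03Rik. Tnr, tenascin-R of later glia, was at 1.20, 1.93 and 2.67 against 1.52, 1.83 and 1.68 CPM, also mixed (0.20 ± 0.31, adjusted p = 0.761).

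Lecticans are the chondroitin sulphate proteoglycans of the brain matrix, and in this family 0 of 4 passed, with a median log2 fold change of 1.16 over members that differed in sign. Vcan, versican, which borders migration paths, on chromosome 13 (89794915 to 89882117), was at 298, 267 and 231 against 178, 179 and 202 CPM, higher in each FGF2 embryo (0.51 ± 0.11, adjusted p = 0.0525). Among other settings, Vcan was called with DESeq2, with voom and quality weights, on filtered log2(RPKM + 1) and without FGF2 8. It was also called with library totals alone, with no low-count filter and with a minimum of 1 CPM in 3 libraries. It was not called with RLE size factors, halved counts of vehicle 9, the embryo number as a block or log2(RPKM + 0.1). Nor was it called on unfiltered log2(RPKM + 1), with any other embryo left out or with sex as a covariate. A neighbour, Gm4117, overlaps its span and had 35.6% as many reads. Ncan, neurocan, the lectican with the highest RPKM, was at 136, 172 and 199.8 against 208, 222 and 222 CPM, lower in each FGF2 embryo (-0.36 ± 0.14, adjusted p = 0.201). The RPKM ratio of Vcan to Ncan was 1.02, 0.741 and 0.567 in the FGF2 embryos and 0.391, 0.372 and 0.405 in the vehicle embryos, so FGF2 6 was farthest from the vehicle embryos and FGF2 8 nearest. Bcan, brevican, was at 5.72, 11.7 and 24.4 against 1.82, 3.78 and 6.32 CPM, with FGF2 6 below vehicle 9 (1.81 ± 0.61, adjusted p = 0.170). Acan, aggrecan, the proteoglycan of cartilage and later of perineuronal nets, was at 0.37, 3.75 and 7.09 against 0.20, 0.33 and 0.29 CPM (3.77 ± 0.96, adjusted p = 0.0890). FGF2 6 lay just above the vehicle embryos for Acan. Its order of FGF2 embryos was that of Matn1 and Lect1, and of the summed choroid plexus and ventral telencephalon markers. The part of these in the Acan values was not tested. Without FGF2 6, Acan was called (adjusted p = 0.00524).

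Link proteins hold lecticans on hyaluronan, and of 3 tested 0 passed. Hapln1, the cartilage and brain link protein, was at 13.2, 8.29 and 11.1 against 8.75, 9.26 and 11.0 CPM (0.17 ± 0.19, adjusted p = 0.678). Hapln3 was at 4.09, 4.37 and 2.08 against 2.08, 1.63 and 1.94 CPM (0.90 ± 0.30, adjusted p = 0.157), and Hapln4 at 0.43, 0.23 and 0.58 against 0.56, 0.36 and 0.63 CPM (-0.34 ± 0.43, adjusted p = 0.719). For Hapln1 and Hapln4 the groups were mixed, and for Hapln3 FGF2 8 lay just above the highest vehicle embryo. Hapln2, a link protein of myelinated tracts, had 4 to 12 reads per library and was not tested.

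**Figure D4:**
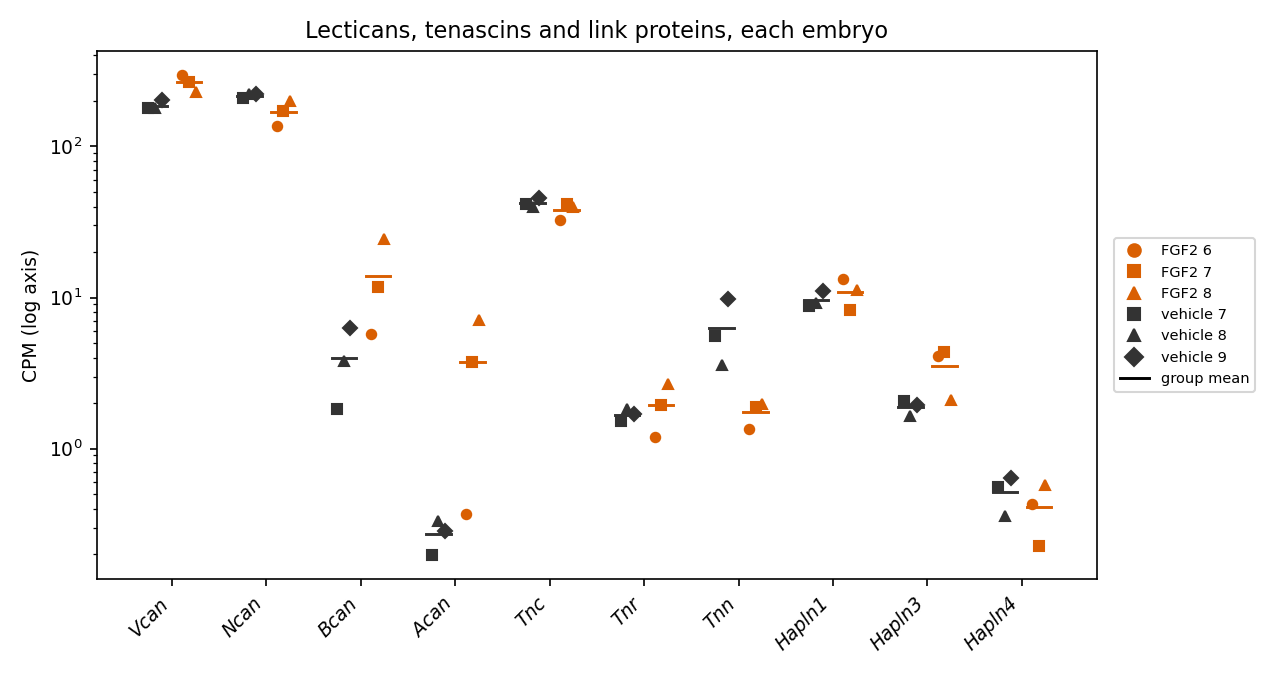
CPM on a log axis (y axis) of lecticans, tenascins and link proteins (x axis); each symbol is 1 embryo, orange for FGF2 and dark grey for vehicle, and lines are group means. Acan and Bcan spread widely over the FGF2 embryos, from 0.37 to 7.09 and from 5.72 to 24.4 CPM, while Vcan runs from 231 to 298 CPM in that group.

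Other genes of the same pathways mostly did not pass. Of 18 genes that process collagen, 0 passed, with a median log2 fold change of -0.04. Among them were Serpinh1, the collagen chaperone (-0.04 ± 0.10, adjusted p = 0.840), and Lox, which cross-links collagen (-0.04 ± 0.13, adjusted p = 0.897). Of 15 matrix proteases and inhibitors 2 rose, 1 fell and 12 did not pass. Those that rose were Adamts1 at 11.3, 11.7 and 9.69 against 6.17, 4.64 and 5.30 CPM (1.02 ± 0.16, adjusted p = 0.0155), and Adamts5 at 4.49, 6.65 and 7.29 against 1.99, 2.71 and 2.57 CPM (1.34 ± 0.24, adjusted p = 0.0259), which can cut lecticans. The other Adamts genes of that list, Adamts4, Adamts9, Adamts15 and Adamts20, did not pass (log2 fold changes of -0.39, -0.01, -0.15 and 0.40). Mmp15, a membrane metalloprotease, fell from 83.0 ± 5.22 to 56.5 ± 3.11 CPM (SD, adjusted p = 0.0122). Of 16 genes of the integrin adhesion complex and of 12 that add sugars to dystroglycan, 0 passed, with medians of -0.07 and 0.00. Of 19 other matrix proteins only Thbs2, thrombospondin 2 of connective tissue, passed, falling from 44.5 ± 9.86 to 19.9 ± 1.14 CPM (adjusted p = 0.00907).

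The number of members called changed when single embryos were left out and when a sex term was fitted. With 1 embryo left out, the number of members called was 9, 4 and 19 without FGF2 6, 7 and 8, and 2, 4 and 1 without vehicle 7, 8 and 9. The number over all genes changed as well. It was 517, 405 and 1943 without FGF2 6, 7 and 8, and 242, 218 and 307 without vehicle 7, 8 and 9. With all 6 embryos it was 799. These fits tested 91 to 92 members and 22308 to 22536 genes. Only Col1a1 was called in all 6 of these fits (adjusted p up to 0.0265). Itga11 lost its call without vehicle 7 or 9 (up to 0.0689), Col1a2 without FGF2 7 or vehicle 7 or 9 (up to 0.0975), Itga3 without any single vehicle embryo (up to 0.0850) and Col9a1 without FGF2 7 or vehicle 8 or 9 (up to 0.103). Leaving out any vehicle embryo ended the calls of Col9a2 and Col6a2, as did leaving out FGF2 7 for Col9a2 (up to 0.122) and FGF2 6 for Col6a2 (up to 0.0945). Col6a3 was kept only without FGF2 8, Col8a2 only without FGF2 6 and Tnn only without vehicle 8 (otherwise up to 0.160, 0.165 and 0.115). A fit with 1 embryo fewer also has less power, so a lost call need not mean a changed difference. Over these fits the log2 fold change ran from 0.69 to 0.73 for Itga3 and from -1.18 to -0.77 for Col8a2. The sign of all 10 log2 fold changes was the same in each of these fits. Because the groups of these genes do not overlap, that outcome was all but fixed in advance. With sex as a covariate 0 members and 5 of all genes were called, and Col1a1 then had a log2 fold change of -0.96 (adjusted p = 0.0961) and Itga11 of -0.81 (0.139). Since vehicle 7 is the only vehicle embryo with Y-linked reads like those of the FGF2 group, sex and group can hardly be told apart in that fit.

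**Figure D5:**
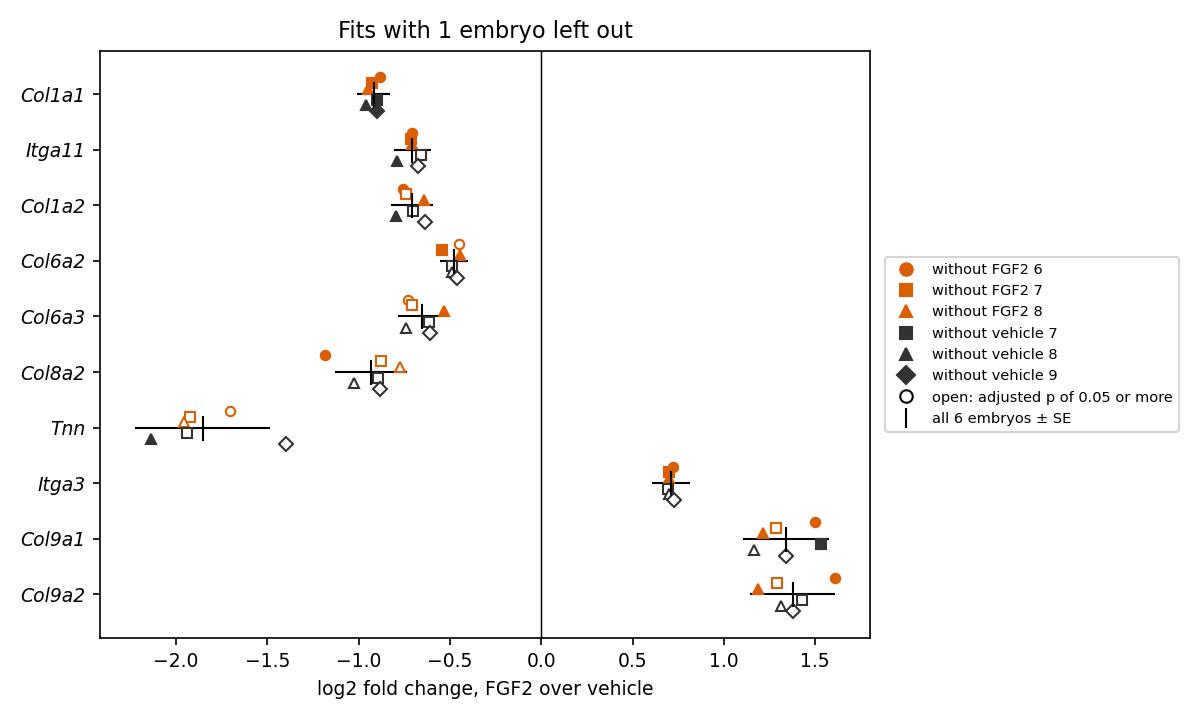
Log2 fold change, FGF2 over vehicle (x axis), of the 10 called members (y axis) in fits with 1 embryo left out; symbols name the embryo left out, filled where the adjusted p was under 0.05 and open otherwise, and the black mark is the value from all 6 embryos with its standard error. All symbols of Col1a1 are filled, between -0.96 and -0.88, while Tnn runs from -2.14 to -1.40 with a single filled symbol.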

How the data were processed

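RNA was extracted from formalin-fixed coronal cryosections on slides, treated with DNase and sequenced as paired-end libraries, 1 per embryo, per the labels' protocols. The submitters' processing notes name bedtools 2.12.0, Bowtie2 2.1.0.0, TopHat2 2.0.9 and CASAVA 1.8, with no roles, and the build NCBIM37 (mm9). The deposited counts are whole numbers of reads over each gene's span from start to end, introns included, in the layout of bedtools coverage, so overlapping genes share reads (54 of the 94 member spans overlap no other). Whether counting used strand, and which tool made the RPKM values, are not given in the sources used. The deposited RPKM values, scaled by the authors for gene model length and read number per the file names, were used for levels between genes. Coordinates of genes are 1-based and of NCBIM37.

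Counts were tested with edgeR 4.0.16 in R 4.3.3 (filterByExpr, TMM scaling, robust glmQLFit, glmQLFTest) over all 6 libraries without covariates, and p-values were adjusted by Benjamini-Hochberg over 21983 genes. CPM uses TMM library sizes. The script was tested on simulated counts. With 3 embryos a group the smallest two-sided permutation p is 0.1, and the p-values given come from the model across genes. The labels describe separate embryos but no separate litters. Alternatives were limma 3.58.1 (voom with quality weights, or log2 of RPKM with a pseudocount of 1 or 0.1, for genes of at least 1 RPKM in 3 libraries or unfiltered), DESeq2 1.42.0, other scalings and filters, halved counts of vehicle 9, genes overlapping no other span, the embryo number as a block, sex as a covariate and each embryo left out.

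Members follow from the symbol rule alone, while the rule for named genes and the gene lists were fixed with earlier results of these data known. The rule for named genes takes every member past the threshold, a fixed set of main chains and receptors, and in each family the member with the smallest p in each direction, 49 in all, of which 1 is not reported here. Members named beyond it (Col5a1, Col5a2, Col5a3, Col27a1, Col6a1, Col6a4, Col6a5, Col6a6, Col8a1, Col9a3, Col11a2, Itgam and those not tested), Serpinh1, Lox and the called genes of the other lists were chosen after their values were seen. The same holds for the Adamts genes named that were not called. Marker lists for platelets and red blood cells summed to 45.2 to 84.8 and 2360 to 4099 CPM in the FGF2 embryos and 53.1 to 58.3 and 2035 to 2955 CPM in the vehicle embryos, with 0 passing. Lum and Dcn stand in both the meningeal and the other matrix list.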

Additional observations from a re-analysis of the deposited data

How the results depend on the processing

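The calls of members changed with the settings. The called members kept their directions, but with groups that do not overlap this was all but fixed in advance when embryos were left out. RLE size factors kept the same 10 members called. Halved counts of vehicle 9 did so as well, but scaling to library size all but undoes a halving of the whole library. That outcome was thus all but fixed in advance, and the part of the even counts was not tested by it. Of the 60 log2 fold changes of called members with 1 embryo left out, 26 stayed past the threshold and 34 did not, and of 126 under the other settings 97 stayed and 29 did not, all in the same direction. Of the values of named members that were not called, 7 of 234 passed with 1 embryo left out and 24 of 464 under the other settings. Uncalled members within 1 SE of 0 were given no direction. The main fit called 799 genes in all, with 3 members that rose and 7 that fell. These counts were 2140, 12 and 9 with voom and quality weights, and 2065, 13 and 12 with DESeq2. The filtered RPKM fits tested only 55 members and 13894 genes. Their counts were 463, 4 and 4 on log2(RPKM + 1) and 436, 3 and 3 on log2(RPKM + 0.1). On log2(RPKM + 1) without a filter, over 93 members and 25180 genes, they were 439, 1 and 3. Genes overlapping no other span, 10826 with 52 members, leave out Col1a1 and Col8a2. Among them 488 passed, with 3 members that rose and 5 that fell. With sex as a covariate the counts were 5, 0 and 0. Library totals alone, or a minimum of 1 CPM in 3 libraries, each gave 5 members that rose. With 1 embryo left out, the ranges were 218 to 1943 genes, 0 to 11 members that rose and 1 to 8 that fell.

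With the embryo number as a block, 703 genes, 5 members that rose and 3 that fell passed, and the log2 fold change of Tnc went from -0.16 to 0.0011 (adjusted p = 0.9986), a change of sign whose cause was not tested. Embryos that share the numbers 7 and 8 did not deviate together (correlations of -0.04 and -0.03). Correlations over so few embryos cannot tell whether a shared number also means a shared litter or batch.

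Members under about 1 CPM, such as Col28a1, Acan in the vehicle group and the 4 not tested, rest on few reads, which limits the precision of their differences at this depth.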
